A study of Homo sapiens with 6 samples.

Results

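Glycolysis and the response to low oxygen were followed through 43 genes, chosen by symbol: sugar transporters, glycolytic enzymes and their regulators, the handling of lactate and pyruvate, the hypoxia-inducible factor (HIF) system and genes known to answer to it. All 43 symbols were among the 43424 that the count files list. The libraries came from HL-60, a human acute myeloid leukaemia line labelled wild type, after 6 months of exposure. In 3 libraries the cells had been kept with the plant preparation Corydalis incisa (Thunb.) Pers. (CIP), raised from 2 to 20 µg/ml, and in 3 with DMSO, the solvent control. Both groups were grown in the same supplemented RPMI-1640 medium, and the labels name no low-oxygen step. RNA was counted with QuantSeq, a method that sequences only the 3′ end of each polyadenylated RNA.

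Glycolysis splits glucose into pyruvate in the cytosol and yields ATP without oxygen. Pyruvate is either reduced to lactate and exported or enters the mitochondrion through pyruvate dehydrogenase, which the PDK kinases switch off. HIF is a pair of proteins whose alpha subunit is marked by prolyl hydroxylases (EGLN genes) when oxygen is present and is then bound by VHL and degraded. When oxygen is short the alpha subunit persists and raises the transcription of most glycolytic enzymes and of genes of vessel growth, mitophagy and collagen modification. Many leukaemia lines use glycolysis heavily even in air, and MYC raises several of the same enzymes.

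The libraries held 8143657 to 10868396 counts each. MPO, the granule peroxidase that HL-60 is known to make in quantity, was at 8672 ± 282 CPM (counts per 1000000 after TMM scaling of the totals, SD, n = 3) with the CIP label and at 1.12 ± 0.323 CPM with the DMSO label. The latter goes against the line's name, so the groups are called by their labels. A gene rose where it passed the test with more counts under the CIP label than under the DMSO label, and fell in the reverse case. Of 10 myeloid markers 5 rose, 4 fell and CD34 was not tested, and their sum was 9883 to 10450.5 CPM with the CIP label against 1935 to 2069 CPM. Without MPO the order turned, with 1331 to 1605 CPM against 1934 to 2068 CPM over the other 9. The summed markers of T cells and of endothelium were at most 0.614 CPM in every library, and CDH5 and MS4A1 were at 0. The 3 fibroblast markers summed to 13.6 to 28.5 CPM against 26.9 to 61.8 CPM and the 3 epithelial ones to 2.86 to 7.05 CPM against 3.44 to 15.2 CPM, with no gene called. The part of cell identity in the results below was not tested. In bulk RNA, fewer cells of a kind and less RNA per cell cannot be told apart. Whether the replicates came from separate cultures is not stated. The p-values then reflect no more than the spread of these libraries, and that spread may be technical.

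Members moved in both directions, and in 7 of 8 roles at least 1 member rose while another fell. The kinases PDK1 and PDK3, the hexokinase HK1, pyruvate kinase (PKM), VHL, VEGFA and NDRG1 fell, while lactate dehydrogenase A (LDHA), the lactate carriers SLC16A1 and SLC16A3, the oxygen sensor EGLN1 and the hypoxia-response genes BNIP3, P4HA1 and ADM rose. With edgeR's quasi-likelihood test over 12844 genes, at a Benjamini-Hochberg adjusted p under 0.05, 17 of 43 members rose, 16 fell, 6 did not pass and 4 were left untested by the filter on low counts. Over all tested genes 73.1% were called, 34.9% as higher and 38.2% as lower, so the 33 called of 39 tested members (84.6%) stand beside a background in which most genes differed. At least 2-fold changes were called for 8 members upward and 14 downward, against 15.0% and 24.0% of all tested genes. The median log2 fold change was 0.15 over the tested members and -0.03 over all tested genes. Its median size without sign was 1.15 against 0.76. For 34 of the 39 the 3 libraries of a group lay wholly above or below those of the other, as they did for 75.4% of all tested genes.

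**Figure D1:**
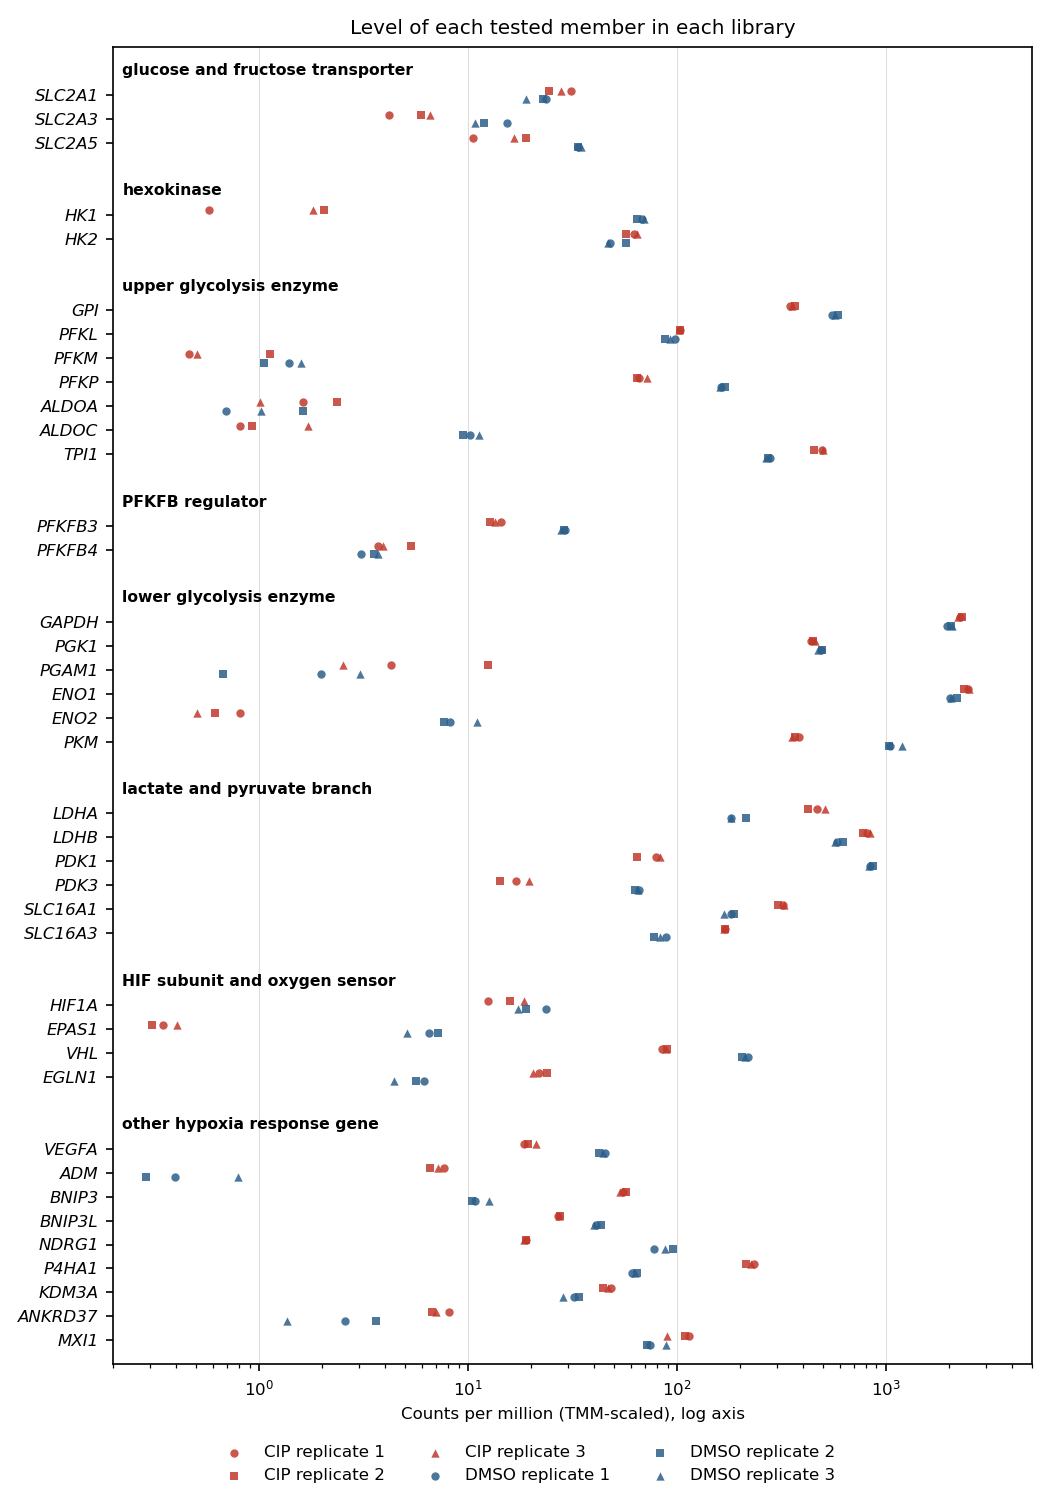
Level of each of the 39 tested members in each library, in TMM-scaled CPM on a log axis, grouped by role. Each point is a library, red for CIP-labelled and blue for DMSO-labelled, with the marker giving the replicate. PDK1, HK1 and EPAS1 show wide gaps with the CIP-labelled libraries lower, ADM and BNIP3 wide gaps with them higher, and PFKM, ALDOA, PFKFB4, PGAM1 and HIF1A overlap.

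In total, the 43 members made up 0.834% to 0.856% of all counts under the CIP label and 1.02% to 1.05% under the DMSO label. After TMM scaling the sums were 9158 ± 136 and 9588 ± 193 CPM (SD, n = 3). The TMM factors were 0.914 to 0.930 with the CIP label and 1.07 to 1.09 with the DMSO label. Scaling by library totals alone therefore lowered every log2 fold change, and the median of all tested genes went from -0.03 to -0.26. Of all called genes 36.8% were then higher and 63.2% lower, in place of 47.7% and 52.3%, and 11 members rose and 18 fell. Members with small changes depend on this choice, as given beside them. A change of scaling moves all genes by nearly the same amount, so a member's distance from the median gene hardly changes. GAPDH was 0.19 and ENO1 0.26 above the median gene with either scaling, which does not show that their calls are firm.

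Of the 3 sugar transporters 1 rose and 2 fell. SLC2A1 (GLUT1, chromosome 1, 42925353 to 42958868, GRCh38) is the basal glucose transporter of most cells. Its level in replicates 1 to 3 was 30.9, 24.4 and 27.8 CPM with the CIP label and 23.5, 22.8 and 19.0 CPM with the DMSO label, groups that lay close together without overlap. The log2 fold change was 0.34 ± 0.14 (SE, edgeR adjusted p = 0.028), and it was 0.11 (adjusted p = 0.47) with library totals alone. It missed the threshold under 5 of 14 alternatives, among them without CIP replicate 1 (0.27, adjusted p = 0.13, edgeR) and without DMSO replicate 3 (0.24, adjusted p = 0.15). SLC2A3 (GLUT3), a high-affinity glucose transporter, fell from 15.4, 12.0 and 10.8 CPM to 4.16, 5.93 and 6.55 CPM. Every CIP-labelled library lay below every DMSO-labelled one, with a log2 fold change of -1.19 ± 0.24 (edgeR adjusted p = 3.1e-05). SLC2A5 (GLUT5), which carries fructose, fell from 33.6, 33.6 and 34.9 CPM to 10.5, 18.8 and 16.5 CPM, and CIP replicate 1 was the lowest. Its log2 fold change was -1.15 ± 0.16 (edgeR adjusted p = 6.1e-08).

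Hexokinases trap glucose in the cell by phosphorylation. HK1 (chromosome 10, 69270000 to 69401882), the housekeeping enzyme that docks on mitochondria, had the largest log2 fold change of all members in either direction. It stood at 67.7, 64.0 and 69.7 CPM in the DMSO-labelled libraries and at 0.577, 2.05 and 1.81 CPM in the CIP-labelled ones. These are 1972 counts over the first group against 43 over the second, a 44.1-fold fall (log2 fold change -5.46 ± 0.19, edgeR adjusted p = 4.2e-23). HK2 (chromosome 2, 74834127 to 74893359), the inducible enzyme of muscle and tumours, is a known HIF target. Its values were 62.4, 57.3 and 64.5 CPM with the CIP label and 47.9, 57.1 and 46.6 CPM with the DMSO label, where replicate 2 lay just under the lowest CIP-labelled library. The log2 fold change of 0.28 ± 0.10 passed (edgeR adjusted p = 0.013), and was 0.05 (adjusted p = 0.68) with library totals alone, 0.23 (0.070) without DMSO replicate 1 and 0.21 (0.084) without DMSO replicate 3. HK3, known from granulocytes, had 24 and 23 counts over the groups and was not tested. Within a library the log2 ratio of HK2 to HK1 counts was 6.62, 4.77 and 5.11 with the CIP label and -0.50, -0.16 and -0.58 with the DMSO label. The ratio was higher in every CIP-labelled library. Summed over the 3 genes, hexokinase was at 63.7 ± 3.01 CPM with the CIP label and 118 ± 2.85 CPM with the DMSO label.

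Of the 7 enzymes of upper glycolysis 1 rose, 3 fell and 3 did not pass. GPI, which turns glucose-6-phosphate into fructose-6-phosphate, fell from 550.3, 591 and 569.9 CPM to 348, 368 and 354 CPM (log2 fold change -0.68 ± 0.06, edgeR adjusted p = 7.1e-12). Phosphofructokinase, the main control point, is a tetramer of liver, muscle and platelet subunits. The platelet subunit PFKP fell from 162, 169.6 and 159.7 CPM to 66.1, 64.6 and 71.9 CPM (log2 fold change -1.28 ± 0.08, edgeR adjusted p = 1.0e-16). The liver subunit PFKL, at 103, 103 and 102 CPM with the CIP label and 97.7, 87.7 and 92.8 CPM with the DMSO label, did not pass (log2 fold change 0.15 ± 0.08, adjusted p = 0.09). The muscle subunit PFKM was near the floor, with 20 and 39 counts over the groups, and did not pass. Summed over the 3 subunits, phosphofructokinase was at 171 ± 3.10 CPM with the CIP label and 258 ± 3.63 CPM with the DMSO label. TPI1, triosephosphate isomerase, rose from 280.1, 273 and 265 CPM to 492, 453 and 499.5 CPM, with no overlap (log2 fold change 0.82 ± 0.06, edgeR adjusted p = 1.4e-13).

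Aldolase cleaves the doubly phosphorylated sugar. ALDOC, the brain-type aldolase, fell from 10.2, 9.47 and 11.3 CPM to 0.808, 0.920 and 1.71 CPM, groups far apart (log2 fold change -3.14 ± 0.33, edgeR adjusted p = 2.9e-10). ALDOA, the form that most cells use, was read at only 1.62, 2.35 and 1.01 CPM with the CIP label and 0.692, 1.63 and 1.02 CPM with the DMSO label. The groups overlapped and the gene did not pass (adjusted p = 0.34). Its last 300 bases are shared on the same strand with an exon of another GENCODE 29 gene, and its overlapping RefSeq gene LOC112694756 had 0 counts in both groups. Whether such reads were discarded in the authors' counting was not tested, so the ALDOA value is uncertain.

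The PFKFB enzymes make and remove the sugar phosphate that activates phosphofructokinase. PFKFB3 fell from 29.0, 28.8 and 28.0 CPM to 14.3, 12.8 and 13.4 CPM (log2 fold change -1.09 ± 0.15, edgeR adjusted p = 5.0e-08). PFKFB4 stood at 3.70, 5.32 and 3.93 CPM with the CIP label and 3.06, 3.54 and 3.72 CPM with the DMSO label, with overlap, and did not pass (log2 fold change 0.33 ± 0.33, adjusted p = 0.38). PFKFB2 had 5 counts, all in DMSO replicate 2, and was not tested.

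Of the 6 enzymes of lower glycolysis 3 rose, 2 fell and 1 did not pass, and each of the 3 that rose lost its call under at least 1 alternative. GAPDH (chromosome 12, 6534517 to 6538371), which makes the first NADH of the pathway, was at 2265, 2308 and 2216 CPM with the CIP label and 1954, 2056 and 2079.8 CPM with the DMSO label. The small difference passed, but not under 4 of 14 alternatives (log2 fold change 0.16 ± 0.06, edgeR adjusted p = 0.017), turned to -0.075 (adjusted p = 0.22) with library totals alone, and was 0.12 (adjusted p = 0.11) without DMSO replicate 1. ENO1, enolase, was at 2458, 2367 and 2494 CPM and 2015, 2178 and 2058 CPM in turn (log2 fold change 0.23 ± 0.06, edgeR adjusted p = 8.5e-04), and turned to -0.0043 (adjusted p = 0.95) with library totals alone. PGK1, the first ATP-yielding step, was at 440.0, 445 and 458 CPM with the CIP label and 489, 495 and 474 CPM with the DMSO label and did not pass (log2 fold change -0.12 ± 0.06, adjusted p = 0.073). It passed as lower under 6 of 14 alternatives, among them without DMSO replicate 3 (-0.15, edgeR adjusted p = 0.036) and with library totals alone (-0.35, adjusted p = 1.6e-06).

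PKM (chromosome 15, 72199029 to 72231591), pyruvate kinase, makes the last ATP of the pathway. It stood at 1041, 1035 and 1192 CPM in the DMSO-labelled libraries and at 385, 369 and 355 CPM in the CIP-labelled ones, a 2.95-fold fall (log2 fold change -1.56 ± 0.07, edgeR adjusted p = 5.7e-21). Its M1 and M2 splice forms share the transcript end and were not separated. ENO2, the neuronal enolase and a HIF target, fell from 8.20, 7.65 and 11.1 CPM to 0.808, 0.614 and 0.504 CPM (log2 fold change -3.79 ± 0.38, edgeR adjusted p = 8.7e-11). PGAM1, phosphoglycerate mutase, was at 4.27, 12.5 and 2.52 CPM with the CIP label and 1.98, 0.670 and 3.05 CPM with the DMSO label. CIP replicate 2 was far above the rest and the groups overlapped. The gene passed narrowly (log2 fold change 1.78 ± 0.67, edgeR adjusted p = 0.037), and without CIP replicate 2 the log2 fold change was 0.86 (adjusted p = 0.12). Leaving out DMSO replicate 1 or 2 also ended the call (adjusted p = 0.13 and 0.091, edgeR), as did 4 further alternatives, among them DESeq2 (1.74, adjusted p = 0.063). GENCODE 29 names 13 pseudogenes of PGAM1 and 62 of GAPDH. Reads that match such copies can be lost or shared in counting, so both values carry that limit, and its size was not tested. The same limit holds for all 16 members with such pseudogenes, among them LDHA (6), PKM (5), TPI1 (4), ENO1 (4) and LDHB (3).

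**Figure D2:**
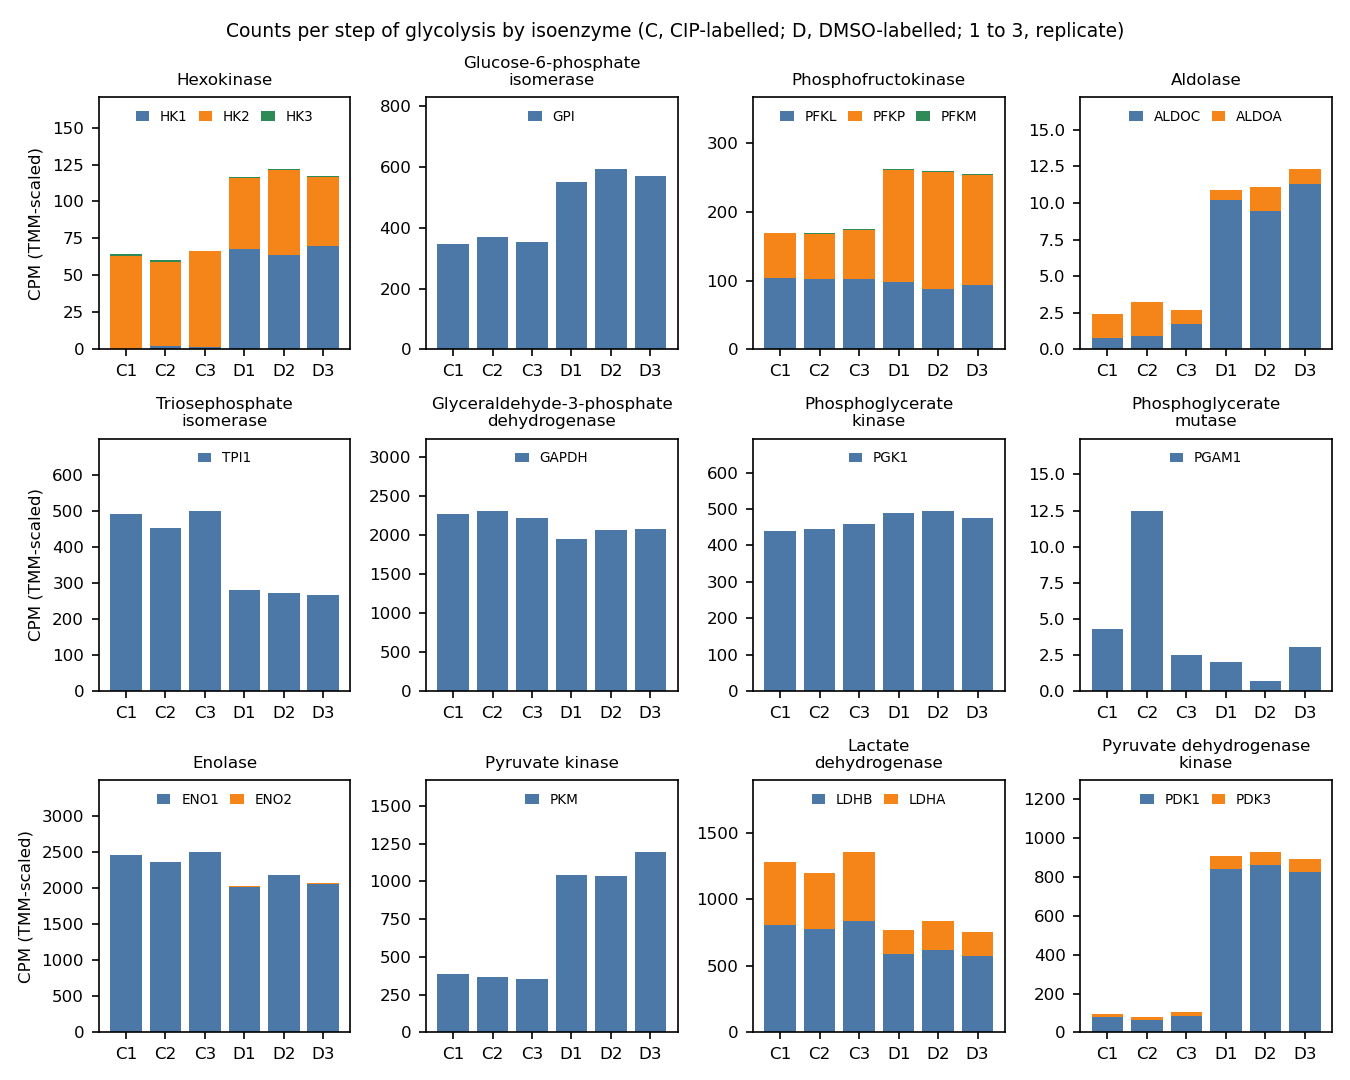
Counts for each step, in TMM-scaled CPM on linear axes from 0, with isoenzymes stacked. Bars are the 6 libraries, C for CIP-labelled and D for DMSO-labelled. HK1 is nearly missing from the C bars of hexokinase, PFKP makes up the difference in phosphofructokinase, PKM and PDK1 are lower in C, and both lactate dehydrogenase genes are higher.

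Of the 6 genes that decide the fate of pyruvate and lactate 4 rose and 2 fell. PDK1 (chromosome 2, 172555373 to 172724312), a kinase that inhibits pyruvate dehydrogenase and a known HIF target, stood at 842, 864 and 826 CPM in the DMSO-labelled libraries and at 79.3, 64.4 and 83.3 CPM in the CIP-labelled ones. The fall was 11.2-fold, from 24880 counts over the group to 2144 (log2 fold change -3.48 ± 0.08, edgeR adjusted p = 7.0e-29). PDK3, a further kinase of the same enzyme, fell from 65.5, 62.6 and 64.8 CPM to 17.0, 14.2 and 19.6 CPM (log2 fold change -1.92 ± 0.12, edgeR adjusted p = 3.7e-16). The spread within either group was small against both gaps.

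Lactate dehydrogenase interconverts pyruvate and lactate, and the A subunit is the one that HIF and MYC are known to raise. LDHA (chromosome 11, 18394563 to 18408425) was at 467, 422 and 512 CPM with the CIP label and 182, 213 and 181 CPM with the DMSO label, a log2 fold change of 1.28 ± 0.07 (edgeR adjusted p = 1.4e-16). LDHB rose less, from 585, 620.2 and 573 CPM to 809.8, 774 and 839.6 CPM (log2 fold change 0.44 ± 0.06, edgeR adjusted p = 6.9e-08). The log2 ratio of LDHA to LDHB counts was -0.79, -0.88 and -0.71 with the CIP label and -1.69, -1.54 and -1.67 with the DMSO label. The ratio was higher in every CIP-labelled library.

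Lactate leaves the cell through monocarboxylate carriers. SLC16A1 (MCT1) rose from 181, 187 and 168 CPM to 321, 305 and 325 CPM (log2 fold change 0.82 ± 0.07, edgeR adjusted p = 3.5e-13). SLC16A3 (MCT4), the exporter of strongly glycolytic cells, rose from 88.2, 77.8 and 82.8 CPM to 169, 169 and 168 CPM, and its CIP-labelled libraries were nearly equal (log2 fold change 1.02 ± 0.07, edgeR adjusted p = 1.9e-14). In both carriers every CIP-labelled library lay above every DMSO-labelled one.

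**Figure D3:**
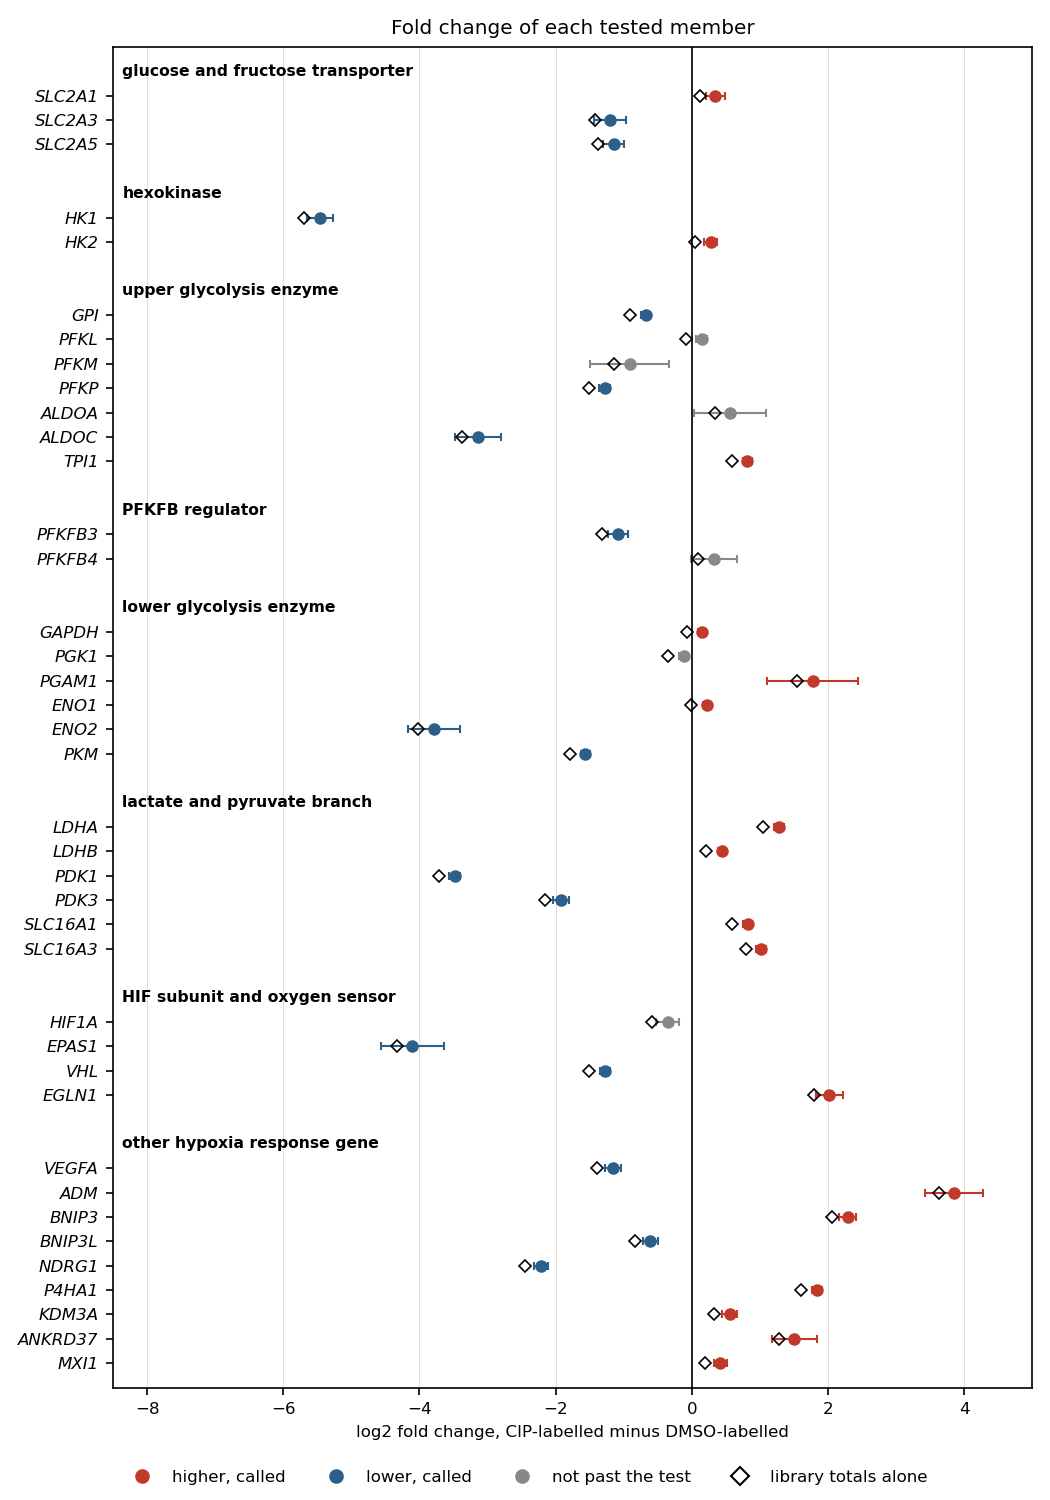
log2 fold change of each tested member, CIP-labelled minus DMSO-labelled, with bars of 1 SE from edgeR, grouped by role. Filled points are red for called higher, blue for called lower and grey for not past the test, and open diamonds give the value with library totals alone. PDK1, HK1, ENO2, EPAS1 and ALDOC lie below -3, ADM lies above 3, and the diamonds cross or reach 0 for GAPDH, ENO1 and PFKL.

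Of the 5 genes of the HIF system 1 rose, 2 fell, 1 did not pass and 1 was not tested. HIF1A (chromosome 14, 61695513 to 61748258), the general alpha subunit, was at 12.5, 15.9 and 18.4 CPM with the CIP label and 23.6, 18.8 and 17.4 CPM with the DMSO label. The groups overlapped and it did not pass (log2 fold change -0.35 ± 0.17, edgeR adjusted p = 0.061). It passed as lower under 5 of 14 alternatives, among them without CIP replicate 3 (-0.48, edgeR adjusted p = 0.016), without DMSO replicate 3 (-0.46, adjusted p = 0.0345) and with library totals alone (-0.59, adjusted p = 0.0025). Without CIP replicate 1 it was -0.21 (edgeR adjusted p = 0.31) and without DMSO replicate 1 -0.22 (adjusted p = 0.30), so single libraries move it both ways. HIF is controlled mainly through the stability of its protein, which RNA counts do not show. EPAS1 (HIF2A), the alpha subunit of endothelium and some macrophages, fell from 6.52, 7.18 and 5.08 CPM to 0.346, 0.307 and 0.403 CPM, 186 counts over the group against 10 (log2 fold change -4.11 ± 0.47, edgeR adjusted p = 1.3e-09).

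VHL, which marks hydroxylated HIF for degradation, fell from 219.7, 204 and 211 CPM to 84.9, 89.7 and 88.3 CPM (log2 fold change -1.27 ± 0.07, edgeR adjusted p = 1.5e-17). EGLN1 (PHD2), the main oxygen-sensing hydroxylase, rose from 6.12, 5.64 and 4.40 CPM to 21.8, 23.8 and 20.4 CPM (log2 fold change 2.02 ± 0.20, edgeR adjusted p = 3.3e-11). VHL and EGLN1, which act in turn in the removal of HIF, moved in opposite directions, each with groups that did not overlap. EGLN3 (PHD3), a strongly induced HIF target in many cells, had 0 counts in all 6 libraries. A count of 0 allows up to 0.106 CPM over the CIP-labelled and 0.102 CPM over the DMSO-labelled libraries.

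HIF binds a short core motif, ACGTG or GCGTG, in promoters and enhancers. RefSeq promoters (GRCh38.p14, 250 bases before to 50 after the start) were matched for 36 of 43 members. SLC2A3, PFKFB2, SLC16A1, VHL, VEGFA, BNIP3L and NDRG1 had no entry. The motif was found on either strand in 25 of the 36 (69.4%), and in 48.4% of all 35116 promoters of that length. ACGTG alone was in 13 (36.1%) against 21.4%. Only the first promoter entry of each member was read, whereas the background held every entry of that length. The background was not matched for base content or expression. The shares thus compare unlike sets, and enrichment was not tested. Shown are the promoters of the 4 hypoxia-response members that changed at least 2-fold and hold the motif, so that their matches follow from the choice. All 4 rose, and the 2 others past 2-fold, VEGFA and NDRG1, fell and had no entry. Capitals mark the motif or its reverse complement, and where a match on each strand overlaps in the palindrome CACGTG both were counted.
ADM promoter, chr11:10304823-10305122 (+ strand): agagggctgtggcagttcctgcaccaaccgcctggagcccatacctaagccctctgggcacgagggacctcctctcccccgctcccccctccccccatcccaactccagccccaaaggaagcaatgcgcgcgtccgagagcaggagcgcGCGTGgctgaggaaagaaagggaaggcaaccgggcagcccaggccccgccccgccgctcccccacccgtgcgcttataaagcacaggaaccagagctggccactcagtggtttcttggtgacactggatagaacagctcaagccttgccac
BNIP3 promoter, chr10:131981874-131982173 (- strand): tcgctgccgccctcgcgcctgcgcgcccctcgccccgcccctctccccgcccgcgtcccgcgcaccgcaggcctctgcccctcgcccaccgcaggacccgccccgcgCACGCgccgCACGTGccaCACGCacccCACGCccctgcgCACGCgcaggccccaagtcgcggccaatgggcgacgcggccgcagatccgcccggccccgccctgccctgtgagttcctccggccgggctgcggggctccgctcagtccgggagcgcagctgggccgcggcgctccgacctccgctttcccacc
P4HA1 promoter, chr10:73096817-73097116 (- strand): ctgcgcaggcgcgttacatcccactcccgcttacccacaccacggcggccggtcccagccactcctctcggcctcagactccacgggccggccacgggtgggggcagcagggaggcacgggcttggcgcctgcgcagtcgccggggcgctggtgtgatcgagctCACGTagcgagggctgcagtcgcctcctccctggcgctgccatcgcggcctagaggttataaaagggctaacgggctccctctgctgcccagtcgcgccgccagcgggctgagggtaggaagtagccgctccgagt
ANKRD37 promoter, chr4:185396591-185396890 (+ strand): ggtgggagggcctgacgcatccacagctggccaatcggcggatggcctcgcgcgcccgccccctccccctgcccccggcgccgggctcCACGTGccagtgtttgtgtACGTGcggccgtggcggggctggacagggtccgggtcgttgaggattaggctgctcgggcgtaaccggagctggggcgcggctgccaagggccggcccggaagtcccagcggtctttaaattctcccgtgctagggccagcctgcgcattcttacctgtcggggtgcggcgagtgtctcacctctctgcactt
BNIP3 held 6 matches within 143 bases before its start, ANKRD37 held 3, and ADM and P4HA1 held 1 each. LDHA, which rose, also held 6, PDK1, which fell 11.2-fold, held 0 and ALDOC, which fell, held 5. A match is a string of letters and says nothing on binding.

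Of the 10 other hypoxia-response genes 6 rose, 3 fell and P4HA2 was not tested. ADM, which encodes the vessel-widening peptide adrenomedullin, was at 7.62, 6.54 and 7.15 CPM with the CIP label and 0.395, 0.287 and 0.790 CPM with the DMSO label, 201 counts against 14 (log2 fold change 3.85 ± 0.43, edgeR adjusted p = 1.0e-09). BNIP3, a receptor for the removal of mitochondria, rose from 10.8, 10.4 and 12.5 CPM to 54.8, 56.8 and 53.2 CPM (log2 fold change 2.29 ± 0.13, edgeR adjusted p = 1.9e-17). Its paralog BNIP3L (NIX), known for clearing mitochondria from red cell precursors, fell from 40.9, 43.1 and 40.0 CPM to 26.9, 27.4 and 27.2 CPM (log2 fold change -0.61 ± 0.11, edgeR adjusted p = 1.6e-05). The log2 ratio of BNIP3 to BNIP3L counts was accordingly 1.03, 1.05 and 0.97 with the CIP label and -1.92, -2.04 and -1.67 with the DMSO label. GENCODE 29 names 39 pseudogenes of BNIP3, which limits its value in the way given for PGAM1.

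P4HA1, the catalytic subunit of collagen prolyl hydroxylase, rose from 60.7, 64.3 and 63.0 CPM to 234, 215 and 225 CPM (log2 fold change 1.84 ± 0.07, edgeR adjusted p = 1.2e-21). P4HA2 had 11 and 7 counts over the groups. ANKRD37, a small ankyrin-repeat protein induced by HIF, rose from 2.57, 3.64 and 1.35 CPM to 8.08, 6.75 and 7.05 CPM (log2 fold change 1.51 ± 0.33, edgeR adjusted p = 1.1e-04). An exon of UFSP2 lies on the other strand at the end of ANKRD37, and without a stated strand setting reads of the pair cannot be told apart. KDM3A, a histone demethylase, rose from 32.2, 33.9 and 28.4 CPM to 48.5, 44.3 and 46.7 CPM (log2 fold change 0.56 ± 0.11, edgeR adjusted p = 3.7e-05). MXI1, a partner of MAX that opposes MYC, was at 115, 109.5 and 89.6 CPM and 74.2, 71.5 and 88.4 CPM in turn (log2 fold change 0.42 ± 0.09, edgeR adjusted p = 1.5e-04), and at 0.19 (adjusted p = 0.071) with library totals alone.

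VEGFA, the main growth factor of vessels and a textbook HIF target, went the other way. It fell from 45.2, 42.2 and 44.2 CPM to 18.6, 19.4 and 21.0 CPM (log2 fold change -1.16 ± 0.12, edgeR adjusted p = 2.4e-10). NDRG1, a stress and differentiation gene, fell from 77.6, 95.5 and 88.0 CPM to 18.9, 18.8 and 18.5 CPM (log2 fold change -2.22 ± 0.11, edgeR adjusted p = 3.4e-19). In neither did the groups overlap.

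Ratios of related genes within a library do not depend on scaling, and efficiencies of reading that are the same in all libraries cancel in their difference between groups. Of 15 pairs, 14 had at least 10 counts for both genes (EGLN3 had none), and 12 of these had ratios that did not overlap between groups. Taken singly, 75.4% of all tested genes did not overlap either, and the share for ratios of other genes was not measured. With 3 against 3 libraries the exact 2-sided permutation test gives p = 0.10 at the smallest, which these 12 reached (adjusted p = 0.12 over 14 pairs), so no pair can pass 0.05. Beside the ratios given above, the log2 ratio of ENO2 to ENO1 differed by -3.93, EPAS1 to HIF1A by -3.59, ALDOC to ALDOA by -3.74 and PDK1 to PDK3 by -1.55, CIP-labelled minus DMSO-labelled. SLC2A3 to SLC2A1 differed by -1.55, PFKFB4 to PFKFB3 by 1.39, PFKL to PFKM by 1.12 and SLC16A3 to SLC16A1 by 0.20. HK3 to HK1 differed by 5.27, with a wide spread where both had few counts. Without DMSO replicate 2 the SLC16A3 to SLC16A1 difference was 0.12. PFKP to PFKM and P4HA2 to P4HA1 overlapped (exact p = 0.70 and 0.30). The former differed by -0.30, with values from -0.51 to 0.11 when a library was left out, and the latter by -1.76, or -0.57 without CIP replicate 2.

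**Figure D4:**
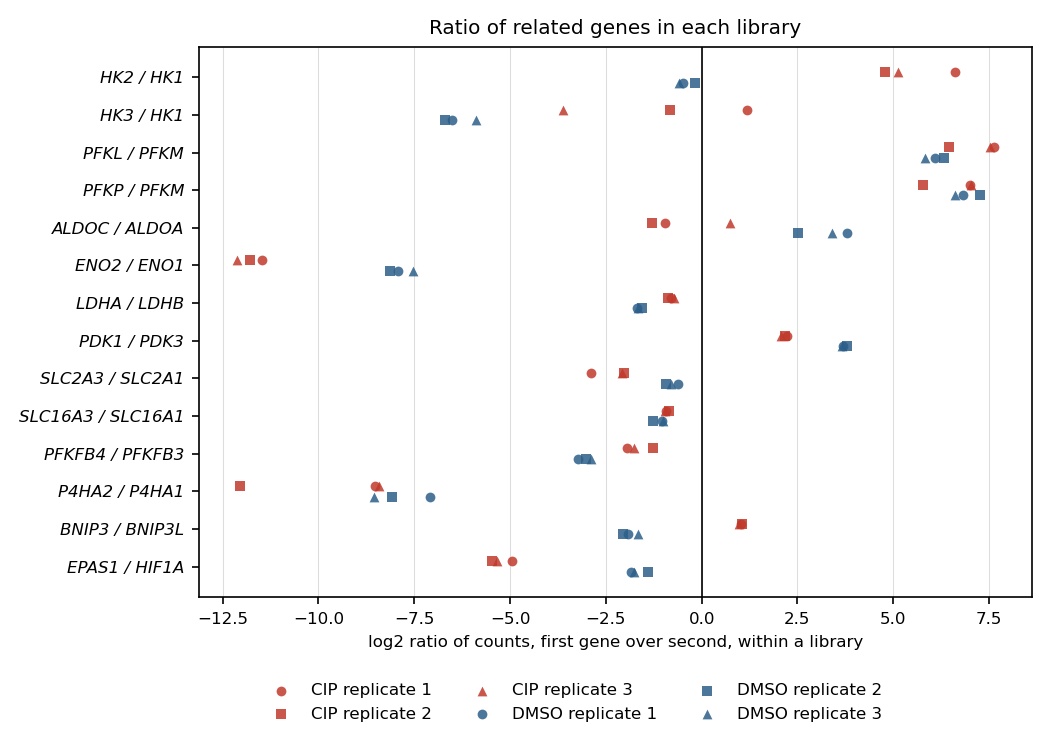
log2 ratio of the counts of related genes within each library, first gene over second, with 0.5 added to each count. Red points are CIP-labelled and blue points DMSO-labelled libraries. The groups are separate in 12 of 14 pairs, HK2 to HK1 lies near 0 with the DMSO label and near 5 or above with the CIP label, and BNIP3 to BNIP3L changes sign.

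Other genes of these pathways were read from 6 lists of 92 genes, of which 66 were tested, 31 rose and 26 fell. The 57 called were 86.4% of those tested, beside 73.1% of all tested genes. At least 2-fold changes were called for 30.3%, beside 39.0% of all tested genes. The counts per list below stand beside the same background, in which most genes differed. Among 10 further HIF pathway components 4 rose and 2 fell. ELOB and RBX1, which join VHL in its ubiquitin ligase, were at 389.5 ± 20.8 against 215 ± 4.94 and 223 ± 8.40 against 153 ± 8.74 CPM, and ELOC at 33.8 ± 8.34 against 50.2 ± 4.53 CPM (CIP against DMSO label, SD, n = 3). The coactivator EP300 rose (61.5 ± 6.17 against 35.3 ± 2.45 CPM) and CITED2, which competes with HIF for it, fell (32.0 ± 6.18 against 50.1 ± 5.03 CPM). ARNT, the beta subunit of HIF, was at 25.8 ± 0.972 against 22.4 ± 0.588 CPM and did not pass (edgeR adjusted p = 0.17).

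Of 30 further hypoxia-response genes 10 rose, 10 fell, 3 did not pass and 7 were not tested. The transferrin receptor TFRC (532 ± 21.3 against 45.4 ± 1.42 CPM), the cytokine MIF (1825 ± 141 against 536 ± 21.3 CPM) and the mitochondrial adenylate kinase AK4 (30.4 ± 4.76 against 8.20 ± 1.23 CPM) had the 3 largest log2 fold changes upward among those of at least 5 CPM in a group. BHLHE40, a repressor of transcription (1.98 ± 0.324 against 8.98 ± 0.678 CPM), ZNF395 (91.4 ± 4.47 against 307 ± 20.5 CPM) and the cyclin CCNG2 (4.86 ± 1.59 against 10.9 ± 1.23 CPM) had the 3 largest downward. CA9, the carbonic anhydrase often read as a marker of hypoxia, and ANGPTL4 had 0 counts in all libraries.

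Pyruvate entry into mitochondria held 4 genes that rose and 5 that fell of 12. PDHA1, the subunit of pyruvate dehydrogenase that the PDK kinases phosphorylate, fell (132 ± 4.35 against 222 ± 11.0 CPM), and DLAT, its acetyltransferase component, rose (38.3 ± 2.58 against 24.8 ± 4.66 CPM). The phosphatase subunit PDP2 was at 61.5 ± 3.86 against 48.3 ± 2.19 CPM (log2 fold change 0.35 ± 0.10, edgeR adjusted p = 0.0016) and DLD, a further component, at 73.3 ± 3.14 against 61.2 ± 5.30 CPM (0.26 ± 0.09, adjusted p = 0.011). With library totals alone these were 0.12 (adjusted p = 0.27) and 0.03 (adjusted p = 0.79), and DLD also missed without DMSO replicate 2 (0.20, adjusted p = 0.073, edgeR). PDP1, the other phosphatase, was at 4.89 ± 2.23 against 8.08 ± 1.42 CPM (log2 fold change -0.72 ± 0.29, edgeR adjusted p = 0.024). That call was lost without CIP replicate 1 (-0.53, adjusted p = 0.12), CIP replicate 3 (-0.53, 0.099) or DMSO replicate 2 (-0.58, 0.12), and the value was -1.16 (0.0011) without CIP replicate 2. Of the pyruvate carrier's subunits MPC2 fell (41.4 ± 3.33 against 64.3 ± 4.44 CPM), and MPC1, which lies outside the naming rule, was at 43.7 ± 1.54 against 36.5 ± 3.21 CPM (log2 fold change 0.26 ± 0.11, edgeR adjusted p = 0.034). The MPC1 call was lost under 8 of 14 alternatives, among them library totals alone (0.027, adjusted p = 0.83) and leaving out CIP replicate 1, DMSO replicate 1 or DMSO replicate 2 (adjusted p = 0.079, 0.076 and 0.18, edgeR). PDK2, another of the kinases, had 124 counts with the DMSO label and 0 with the CIP label, at least 39.8-fold lower against 3 counts over the group. PDK2 lies below the level of the genes named by rule, and it and MPC1 were picked after their values were seen. PDK4 had 0 counts in all libraries.

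Among 21 other isoenzymes and transporters only 5 were read well enough to test. SLC16A7 (MCT2), a carrier with high affinity for pyruvate, was counted 521, 691 and 536 times under the CIP label, and 0, 0 and 1 times under the DMSO label. The ratio of summed counts after scaling was 1814 (exact 95% interval 325 to 71690, counting error only). BSG, the chaperone that takes MCT1 and MCT4 to the cell surface, rose (129 ± 7.09 against 86.0 ± 2.45 CPM), as did BPGM (9.62 ± 0.786 against 4.78 ± 1.48 CPM), which makes a regulator of haemoglobin. ENO3, the muscle enolase, fell (3.63 ± 0.683 against 12.0 ± 3.01 CPM), and so did ADPGK, an ADP-dependent glucokinase (log2 fold change -0.27 ± 0.11, edgeR adjusted p = 0.026). Leaving out CIP replicate 1 or 3 or DMSO replicate 2 or 3 ended the ADPGK call (adjusted p = 0.095, 0.15, 0.051 and 0.18, edgeR).

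The pentose phosphate branch, which draws on glucose-6-phosphate for NADPH and ribose, had 5 of 8 genes rise and 3 fall. PGD, an NADPH-making dehydrogenase (67.5 ± 2.14 against 115 ± 5.80 CPM), fell, as did transketolase, TKT (174 ± 10.9 against 210.5 ± 11.2 CPM). RPE and RPIA, which interconvert the pentose phosphates, and transaldolase rose, with RPE at 67.1 ± 6.88 against 36.4 ± 1.07 CPM, RPIA at 75.0 ± 10.2 against 44.2 ± 4.92 CPM and TALDO1 at 547 ± 21.2 against 331 ± 19.2 CPM. Of 11 genes of glycogen and gluconeogenesis 5 rose and 4 fell. PCK2, the mitochondrial enzyme that makes phosphoenolpyruvate, fell (10.8 ± 1.44 against 112 ± 2.34 CPM), and so did the phosphoglucomutase PGM1 (23.6 ± 1.55 against 56.6 ± 4.30 CPM) and the phosphorylase PYGL (42.9 ± 4.52 against 86.4 ± 8.18 CPM). PGM2, a related phosphomutase (54.0 ± 1.39 against 14.8 ± 2.28 CPM), and UGP2, which makes UDP-glucose (58.8 ± 1.79 against 40.4 ± 5.92 CPM), rose. FBP1, a phosphatase that runs gluconeogenesis against phosphofructokinase, had 97 counts with the CIP label and 0 with the DMSO label, at least 33.6-fold higher against 3 counts over the group. Like PDK2 it was picked after its values were seen.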

How the data were processed

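The authors deposited whole-number read counts per gene symbol for each library (43424 symbols, 22384 with a count), with no normalization as far as unequal totals show. Tools named in the submitters' processing notes are STAR, HTSeq, fastp and bcl2fastq 2.20.0.422, with GRCh38 as the build. Annotation, strand setting and treatment of multiply matching reads are not given in sources used here. No molecular identifiers are mentioned, and intervals or floors therefore hold for counting error alone. A library's 3 counts equal 0.287 to 0.346 CPM.

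Group and replicate number came from the titles. Counts were tested with edgeR 4.0.16 (R 4.3.3; filterByExpr, TMM, robust quasi-likelihood, group alone, 2-sided, adjusted over 12844 genes). CPM are counts over TMM-scaled totals. The SE is the log2 fold change over the square root of F. No 2 libraries were duplicates: chi-square per gene was 3.89 to 8.02 between replicates.

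The members, lists, pairs and tests were chosen with earlier results of these data known, so no list was tested as a list. Values per library follow a rule: per role, up to 4 called members of at least 5 CPM by size of change, plus 9 fixed genes; the other members are given too. Per list, up to 3 called genes a direction are named; a few genes that this rule or the marker lists would name are not reported here. Of 43 members, 23 overlap another RefSeq gene, and 8 have an exon of another GENCODE gene in their last 300 bases. The fit was tested on simulated data. Alternatives tried were library totals alone, upper-quartile and RLE scaling, no filter, a filter of 1 CPM in 3 libraries, DESeq2 1.42.0, limma-voom (limma 3.58.1), a replicate block and each library left out.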

Additional observations from a re-analysis of the deposited data

How the results depend on the processing

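Of the 33 called members, 27 (11 higher and 16 lower) kept their call and direction under all 14 alternatives. The other 6 are SLC2A1, HK2, GAPDH, PGAM1, ENO1 and MXI1, and apart from PGAM1 their log2 fold changes were at most 0.42 in size. HIF1A and PGK1 passed as lower under some settings. With library totals alone 11 members were higher in place of 17, with the 16 lower ones and HIF1A and PGK1 below, and GAPDH and ENO1 turned to log2 fold changes of -0.075 and -0.0043. Of all called genes 63.2% were then lower, in place of 52.3%. The other counts of called genes stayed within 1.5 times. Leaving out a library gave 14 to 17 members higher and 16 to 18 lower, and 9152 to 9552 genes called over all. The log2 ratio of PFKP to PFKM differed by -0.30 between groups, by -0.51 without CIP replicate 3 and by 0.11 without CIP replicate 2. Libraries of equal replicate number showed no positive correlation of their deviations from the group means (-0.060 to -0.023). The labels do not say whether equal numbers pair libraries, and these correlations cannot settle it. With the replicate block 31 members were called, without GAPDH (adjusted p = 0.056, edgeR) and PGAM1 (adjusted p = 0.073, edgeR), and 9061 genes over all. Depth limits members under about 2 CPM (ALDOA, PFKM, HK3, P4HA2, PFKFB2, EGLN3), for which a difference was not detectable here.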
